A study of Mus musculus with 6 samples.

Results

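The genes described here are 42 components of the transforming growth factor beta (TGF-beta) and bone morphogenetic protein (BMP) pathways, out of 54532 gene IDs measured. They were chosen by name from a fixed list, with earlier results of these data known. They comprise 11 ligands, 11 receptors, 8 SMADs, 2 SMAD ubiquitin ligases, 6 antagonists and modulators, 2 latent TGF-beta binding proteins and 2 homeobox targets. Bmp10 and the Id genes were not counted among them. RNA was sequenced from heart ventricles of mouse embryos at E12.5 (days after conception). There were 3 libraries from a conditional LSD1 knockout (genotype LSD1-KO) and 3 from controls (genotype CTL). LSD1, encoded by Kdm1a, is a histone demethylase of the CoREST repressor complex. The labels name neither the driver of the deletion nor the alleles of the controls nor the strain, and do not say whether libraries of 1 group came from separate embryos. What the p-values measure is the library-to-library spread, part of which may be technical.

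TGF-beta, activin and BMP ligands are secreted dimers that bring together type I and type II receptor kinases. The activated type I receptor phosphorylates a receptor-activated SMAD, which joins SMAD4 and enters the nucleus to change transcription. SMAD2 and SMAD3 carry the TGF-beta and activin signal and SMAD1, SMAD5 and SMAD9 the BMP signal, while SMAD6 and SMAD7 inhibit the pathway. In the embryonic heart BMPs from the myocardium and TGF-beta ligands drive the endocardium of the cushions to become mesenchyme, and BMP signalling also supports growth of the ventricular wall. In bulk tissue, fewer cells of a type and less RNA per cell cannot be told apart.

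Values are FPKM, fragments scaled by exon length and by a factor for each library, so levels can be roughly compared between genes. Where other gene models cover many exon bases of a gene, its level may be misstated, and its rank or share among other genes is less certain. The deposited values correspond to 17898946 to 20076028 whole reads per library. With a floor of 3 reads, a transcript 1 kb long is detected from 0.155 to 0.169 FPKM upwards, counting error only. Kdm1a stood at 10.71, 11.77 and 10.96 FPKM in knockout ventricles, against 29.99, 29.73 and 22.80 FPKM in control ventricles (log2 change -1.22, SE 0.11, limma adjusted p = 0.00274; two-sided exact permutation p = 0.1, the smallest that 3 against 3 libraries allow). The 8 cardiomyocyte markers summed to 13254 to 14687 FPKM in knockout and 11884 to 15778 FPKM in control libraries, so the libraries carried heart muscle RNA. The sum mostly reflects its highest markers. Actc1 averaged 7549 FPKM in knockout and 7217 FPKM in control ventricles, and Ttn 0.976 and 0.908 FPKM. Some libraries stood apart. Knockout replicate 3 had 12.1 FPKM of Xist and 0 reads of 4 Y-linked genes. Knockout replicate 1 had 1.11 FPKM of Xist beside Y-linked reads, whereas the other 4 libraries had at most 4 Xist reads. Those 4 libraries, all controls among them, had Y-linked reads, so sex-linked RNA was not balanced between the groups. Its bearing on the other values was not tested. Knockout replicate 1 also had 5.24 FPKM of the neural crest marker Sox10, against 0 to 0.611 FPKM in the other 5 libraries. Control replicate 3 had the largest share of mitochondrially encoded RNA, 9.03%, where the other 5 libraries had 4.64% to 7.10%.

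Few genes of the pathway passed the test between knockout and control ventricles. Of the 42 genes, 40 reached the mean of 0.5 FPKM over the 6 libraries that was asked for testing. Among those, 1 rose in the knockout, the ligand gene Gdf11, and 0 fell (limma on log2(FPKM + 1), Benjamini-Hochberg adjusted p under 0.05 over 14149 genes). Of all genes tested, 1.91% rose and 0.466% fell, and 2.37% were called in either direction, so 1 call among 40 genes is close to the background. With voom weights on recovered reads 2 of the 40 were called, Gdf11 higher and Inhba lower, where 3.61% of all genes were called, 2.89% higher and 0.721% lower. Without the filter on low values 0 were called, against 0.47% of all genes, 0.424% higher and 0.0462% lower. An unadjusted p under 0.05 was found for 4 of the 40 (Gdf11, Inhba, Msx2 and Tgfb1), against 16.1% of all genes tested. The ranges of the groups did not overlap for 6 of the 40, with 5 higher and 1 lower in the knockout. Across all genes tested 21.4% did not overlap, 11% higher and 10.4% lower. The median log2 change of the 40 genes was 0.03, against -0.01 for all genes tested.

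**Figure D1:**
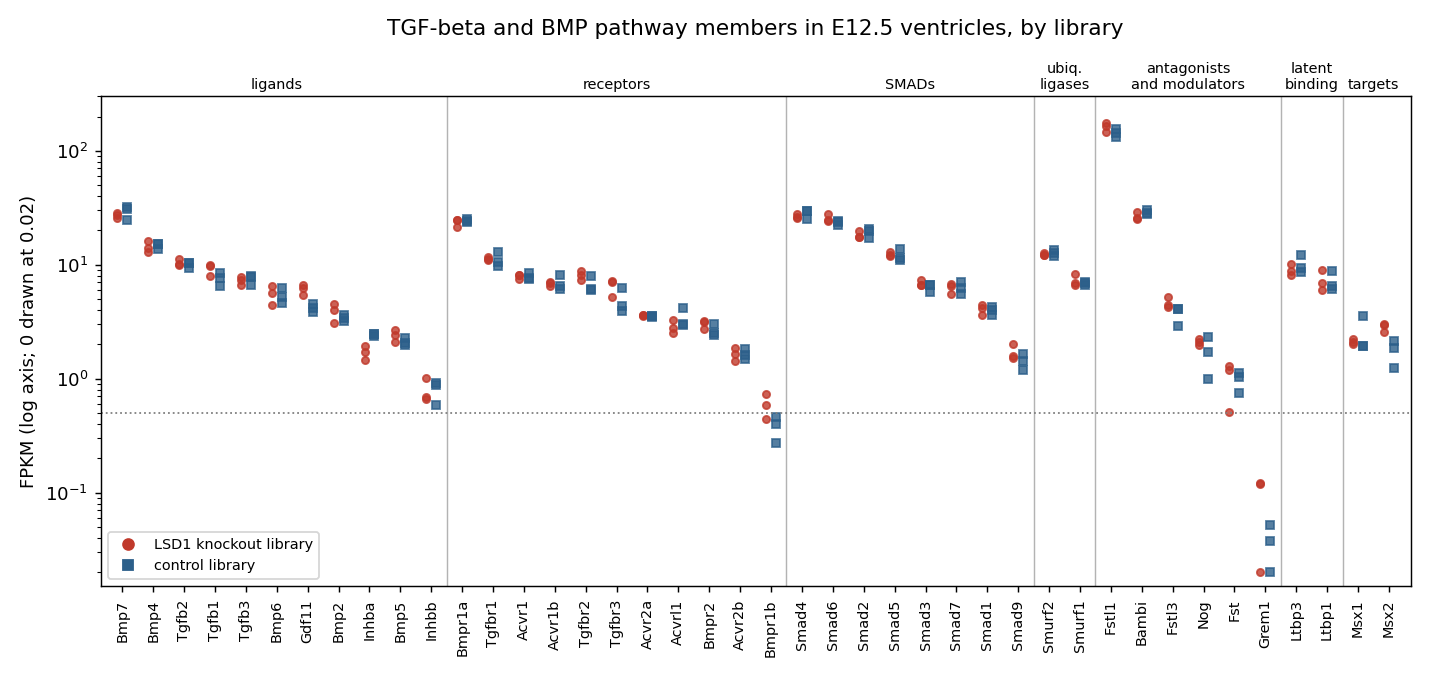
FPKM of the 42 pathway genes in each library, on a log axis, with genes grouped by role and ordered by control level within a role. Red circles are the 3 LSD1 knockout libraries and blue squares the 3 control libraries; the dotted line marks the mean of 0.5 FPKM needed for testing, which Bmpr1b and Grem1 missed. For most genes the circles and squares cover the same range; Gdf11 and Msx2 are higher and Inhba lower in every knockout library.

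The intervals bound the change of most of these genes, more loosely on reads than on FPKM. On the log2(FPKM + 1) scale the 95% interval lay within 1.5-fold either way for 36 of the 40 genes, against 85.7% of all genes tested, and within 2-fold for 40 of the 40. The 4 whose interval crossed 1.5-fold were Gdf11, Msx2, Tgfbr3 and the BMP antagonist gene Nog. That scale understates the change of genes at a few FPKM or less, such as Msx2, Inhba, Smad9 and Fst. With voom on recovered reads the interval lay within 1.5-fold for 31 of the 40 genes, against 70.4% of all genes, and within 2-fold for 38 of the 40. Msx2 (95% interval 0.32 to 1.18 on the log2 scale) and Nog (-0.22 to 1.02) reached past 2-fold there, and Inhba, Gdf11, Tgfbr3, Smad9, Fst, Fstl3 and Msx1 past 1.5-fold. By role, the median log2 change was 0.05 for the 11 ligands, 0.02 for the 10 receptors tested, 0.04 for the 8 SMADs, 0.01 for the 2 ubiquitin ligases and 0.17 for the 5 antagonists and modulators tested. It was -0.05 for the 2 latent TGF-beta binding proteins and 0.19 for the 2 homeobox targets. The 1 call lay among the ligands, and 0 genes of the other roles were called either way.

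**Figure D2:**
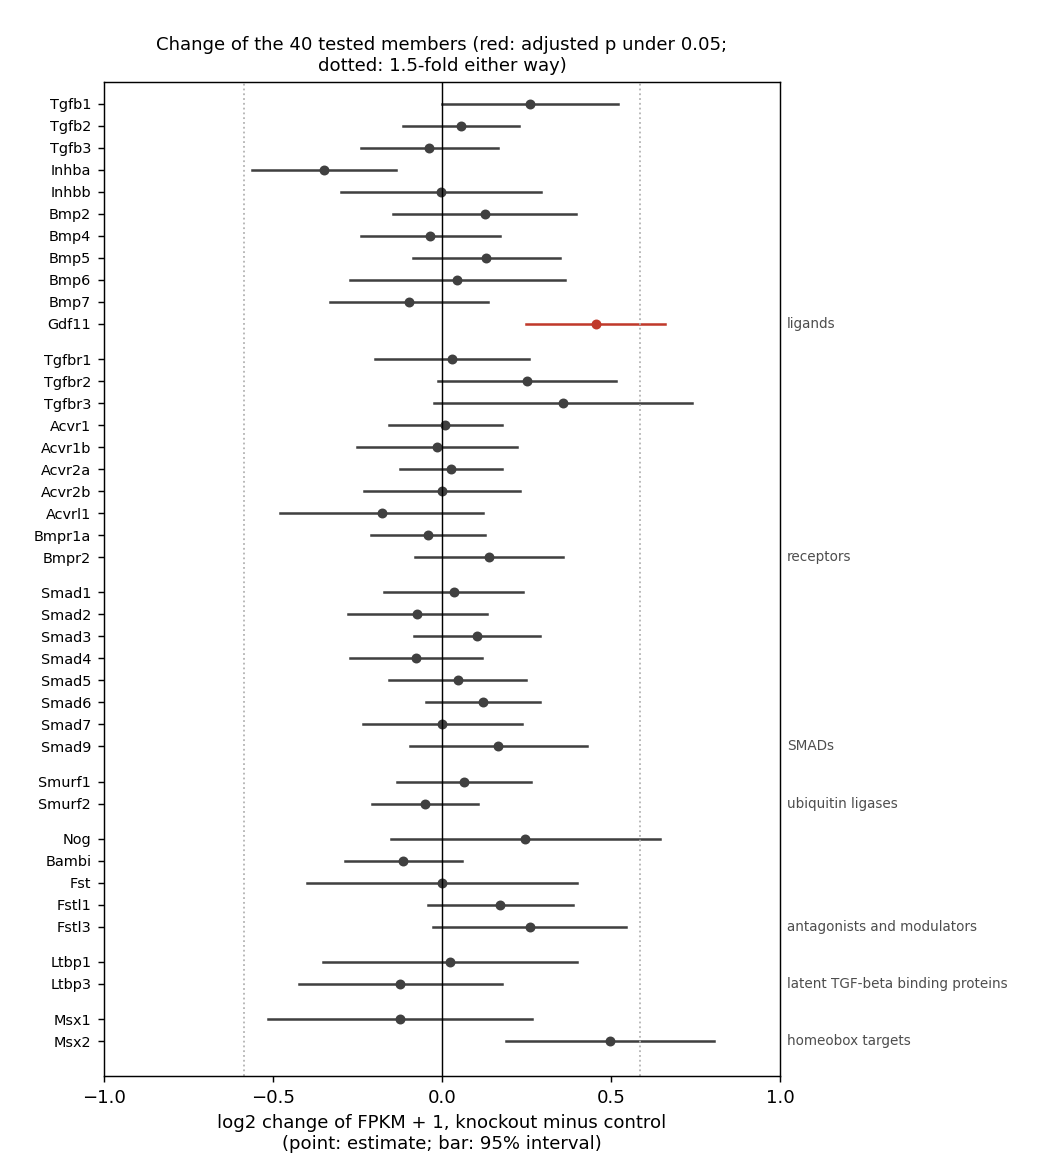
Log2 change of FPKM + 1 (knockout minus control) with its 95% limma interval for the 40 genes tested, grouped by role. The solid line marks no change and the dotted lines 1.5-fold either way. Only Gdf11 (red, 0.45) passed the adjusted threshold; 36 of the 40 intervals lie between the dotted lines.

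Gdf11 was the 1 gene called among the 11 ligands. It encodes growth differentiation factor 11, a secreted ligand related to myostatin that signals through activin receptors to SMAD2 and SMAD3. Its mm10 position is chromosome 10, 128882295 to 128891718, minus strand, and no other gene model covers its exons. Gdf11 had 5.46, 6.60 and 6.23 FPKM in knockout ventricles, against 4.54, 3.83 and 4.16 FPKM in control ventricles. All 3 knockout libraries lay above all 3 controls, at 1.46 times the control mean. The log2 change was 0.45 (SE 0.09, 95% interval 0.25 to 0.66, limma adjusted p = 0.0454), from 277 to 520 reads per library. The call stood close to the threshold. Without any 1 of the 6 libraries it was lost (limma adjusted p between 0.0584 and 0.166, and log2 changes between 0.40 and 0.52). It was also lost after quantile normalization (adjusted p = 0.0585), without the filter on low values (0.123) and with a replicate block (0.104), while limma with voom weights on the recovered reads gave an adjusted p of 0.0205.

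The windows around the annotated starts of 3 of these genes are shown because Gdf11 was the gene called, Msx2 had the largest fitted change and Smad6 carries a palindromic SMAD-binding sequence. Each runs from 250 bases before to 50 bases after the start and is taken from RefSeq on GRCm38.p6. Gdf11 is at chr10:128891669-128891968, Msx2 at chr13:53472731-53473030 and Smad6 at chr9:64022010-64022309, all 3 on the minus strand. Capitals mark matches on either strand to the TATA motif TATAAA, the GC-rich BMP SMAD sequence GGCGCC or the palindrome GTCTAGAC; each window holds at most 1 match.
Gdf11: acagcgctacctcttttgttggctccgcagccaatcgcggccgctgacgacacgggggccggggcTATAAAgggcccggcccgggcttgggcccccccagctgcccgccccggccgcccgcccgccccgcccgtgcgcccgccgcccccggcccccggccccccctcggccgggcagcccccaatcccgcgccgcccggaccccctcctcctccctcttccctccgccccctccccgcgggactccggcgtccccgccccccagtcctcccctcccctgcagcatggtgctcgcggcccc
Msx2: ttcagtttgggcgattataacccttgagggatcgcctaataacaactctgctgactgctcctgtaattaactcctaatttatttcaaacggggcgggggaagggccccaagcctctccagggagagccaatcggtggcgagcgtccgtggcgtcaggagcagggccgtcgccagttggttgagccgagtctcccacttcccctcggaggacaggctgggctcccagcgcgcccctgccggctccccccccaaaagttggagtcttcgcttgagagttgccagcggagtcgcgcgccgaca
Smad6: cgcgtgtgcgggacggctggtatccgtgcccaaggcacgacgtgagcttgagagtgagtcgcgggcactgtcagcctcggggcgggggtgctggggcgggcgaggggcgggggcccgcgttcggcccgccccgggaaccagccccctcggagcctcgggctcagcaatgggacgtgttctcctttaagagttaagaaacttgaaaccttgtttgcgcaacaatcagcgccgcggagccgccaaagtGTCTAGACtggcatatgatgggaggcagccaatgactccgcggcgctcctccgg
The Gdf11 window is 80.7% G and C, against a median of 52.7% over 32851 windows, and its 1 match, TATAAA, begins 185 bases before the annotated start. The 31 pathway genes with an entry have 37 windows. TATAAA was found in 13.6% of all windows and in 5 of the 37. GGCGCC was found in 11.9% of all windows and in 9 of the 37. Those 9 belong to 8 genes, Acvr1b, Bmpr1a, Bmpr2, Tgfbr1, Grem1, Smad5, Smad9 and Smurf2. GTCTAGAC was found in 0.213% of all windows and, among the 31 genes, in that of Smad6, where it begins 4 bases before the start. The Msx2 window held none of the 3 motifs. It lies inside the GENCODE gene model used for Msx2 levels, which on this minus strand begins at 53473074. It therefore does not cover the bases before the start of that model. A match describes these letters and does not show that a factor binds there.

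The remaining ligand genes did not pass the test. Inhba encodes the beta A chain of activin A and was the ligand gene with the most negative change. Inhba had 1.45, 1.701 and 1.95 FPKM in knockout libraries, against 2.48, 2.37 and 2.46 FPKM in control libraries. Every knockout library was below every control, with a mean at 0.699 of the control (log2 change -0.35, SE 0.09, limma adjusted p = 0.114). On recovered reads, with voom weights, Inhba was called lower (log2 change -0.53, limma adjusted p = 0.048). In the fits that left out a library it was not called (adjusted p between 0.139 and 0.282). Inhbb, the beta B chain of activin, was at 0.788 ± 0.199 FPKM in knockout and 0.790 ± 0.178 FPKM in control ventricles (SD, n = 3 each).

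The 3 TGF-beta genes were expressed at 6.48 to 11.1 FPKM. TGF-beta 1 is the form best known from endothelial and blood cells and TGF-beta 2 the form most tied to cushion formation. Tgfb1 had 7.96, 9.77 and 9.88 FPKM in knockout libraries, against 6.48, 7.66 and 8.42 FPKM in control libraries, with overlapping ranges (log2 change 0.26, SE 0.11, limma adjusted p = 0.309). Tgfb2 averaged 10.4 ± 0.600 FPKM in knockout and 10.01 ± 0.639 FPKM in control ventricles, a log2 change of 0.06 (SE 0.07). Tgfb3 averaged 7.24 ± 0.572 and 7.46 ± 0.689 FPKM in knockout and control ventricles (SD, n = 3 each), with 12.4% of its exon bases under other gene models. The summed level of the 3 genes was 25.3 to 28.8 FPKM in knockout and 23.6 to 26.7 FPKM in control libraries. Tgfb1 made up 34.2% ± 2.63 of that sum in the knockout and 30.1% ± 3.35 in the control, Tgfb2 38.9% ± 0.676 and 40.1% ± 2.01, and Tgfb3 27.0% ± 1.98 and 29.8% ± 1.56 (SD, n = 3 each). None of the 3 shares separated the groups.

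Among the BMP genes, Bmp7 had the highest level and Bmp4 followed in every library. BMP4 and BMP2 are best known in the heart for outflow tract and cushion formation, and BMP5, BMP6 and BMP7 form a related subgroup of partly interchangeable ligands. Bmp7 had 25.7, 28.4 and 27.2 FPKM in knockout libraries, against 30.7, 32.2 and 24.8 FPKM in control libraries (log2 change -0.10, SE 0.10, limma adjusted p = 0.69). Bmp4 averaged 14.4 ± 1.56 FPKM in knockout and 14.7 ± 0.877 FPKM in control ventricles. Bmp6 averaged 5.55 ± 1.02 and 5.33 ± 0.820 FPKM, Bmp2 3.85 ± 0.731 and 3.41 ± 0.186 FPKM, and Bmp5 2.39 ± 0.288 and 2.09 ± 0.163 FPKM in knockout and control ventricles (SD, n = 3 each). The group ranges overlapped for each of these 5 genes. Of the Bmp5 exon bases, 46.7% lie under another gene model, and the library kit does not mark strand. The level of Bmp5 relative to the other BMP genes is therefore less certain. The 5 genes together summed to 51.9 to 55.3 FPKM in knockout and 50.1 to 57.7 FPKM in control libraries. In that sum the share of Bmp5 was 4.57%, 4.84% and 4.05% in knockout libraries, against 4.03%, 3.55% and 3.91% in control libraries. This was the 1 family share whose groups did not overlap (two-sided exact permutation p = 0.1, the smallest p possible, and 0.6 adjusted over the 12 family values compared).

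**Figure D3:**
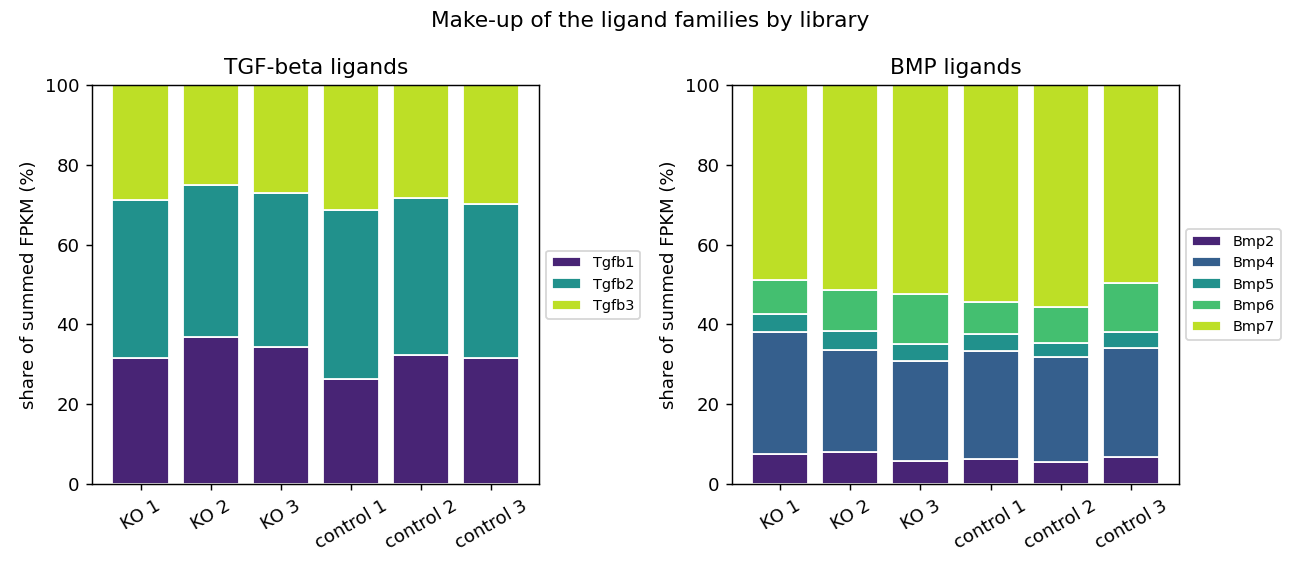
Share of each gene in the summed FPKM of the 3 TGF-beta ligands (left) and of the 5 BMP ligands (right), in percent, for each library with the knockout libraries (KO) left of the controls. Bmp7 makes up 48.8% to 52.5% of BMP ligand RNA in knockout and 49.5% to 55.7% in control libraries, and Tgfb2 has the largest share of TGF-beta ligand RNA in each of the 6.

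No receptor gene passed the test. The type I receptor of BMPs, Bmpr1a, which is needed in the myocardium for growth of the ventricle in mice, had the highest level, at 24.95, 21.7 and 24.5 FPKM in knockout libraries, against 23.8, 24.0 and 25.4 FPKM in control libraries. Its log2 change was -0.04 with a 95% interval of -0.21 to 0.13. The activin and BMP type I receptor gene Acvr1 averaged 7.94 ± 0.322 FPKM in knockout and 7.88 ± 0.569 FPKM in control ventricles, and the activin type I receptor gene Acvr1b 6.81 ± 0.284 and 6.93 ± 1.09 FPKM (SD, n = 3 each). Acvrl1, the ALK1 receptor of endothelium, averaged 2.86 ± 0.390 and 3.39 ± 0.707 FPKM, a log2 change of -0.18 (SE 0.13). The shared type II receptor gene Acvr2a had the smallest SD of the receptors, at 3.62 ± 0.0427 FPKM in knockout and 3.53 ± 0.0384 FPKM in control ventricles (SD, n = 3 each). Its groups did not overlap, yet its ratio was 1.024 (limma adjusted p = 0.882). Acvr2b averaged 1.65 ± 0.219 and 1.65 ± 0.172 FPKM and Bmpr2 3.03 ± 0.261 and 2.67 ± 0.326 FPKM in knockout and control ventricles (SD, n = 3 each).

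Bmpr1b, a second BMP type I receptor, did not reach the level needed for testing. It had 0.585, 0.735 and 0.441 FPKM in knockout libraries, against 0.463, 0.273 and 0.400 FPKM in control libraries, from 29 to 85 reads each. Without the filter on low values its log2 change was 0.20 (limma adjusted p = 0.501).

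Neither Tgfbr2 nor Tgfbr3 passed the test, and both were higher in the libraries where endothelial markers were higher. Tgfbr2 encodes the type II TGF-beta receptor and Tgfbr3 the co-receptor betaglycan, which presents TGF-beta 2. Tgfbr2 had 7.30, 8.10 and 8.90 FPKM in knockout libraries, against 6.12, 5.97 and 7.91 FPKM in control libraries (log2 change 0.25, SE 0.11, limma adjusted p = 0.329). Tgfbr3 had 5.22, 7.01 and 7.16 FPKM in knockout libraries, against 3.95, 4.34 and 6.28 FPKM in control libraries (log2 change 0.36, SE 0.16, limma adjusted p = 0.338). For both genes control replicate 3 lay within the knockout range and the other 2 controls below it. The summed level of 8 endothelial and endocardial markers was 154, 187 and 195 FPKM in knockout libraries, against 131, 129 and 184 FPKM in control libraries, and all 8 had a fitted change above 0, although 0 of 8 were called. Control replicate 3 was the highest control for all of these. The endothelial receptor gene Acvrl1 did not follow this order. It was highest in control replicate 2, the library with the lowest marker sum, and its log2 change was -0.18. The part of endothelial content in the values of Tgfbr2, Tgfbr3 and Acvrl1 was not tested. Tgfbr1, the type I TGF-beta receptor, averaged 11.3 ± 0.409 FPKM in knockout and 11.1 ± 1.61 FPKM in control ventricles (SD, n = 3 each).

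**Figure D4:**
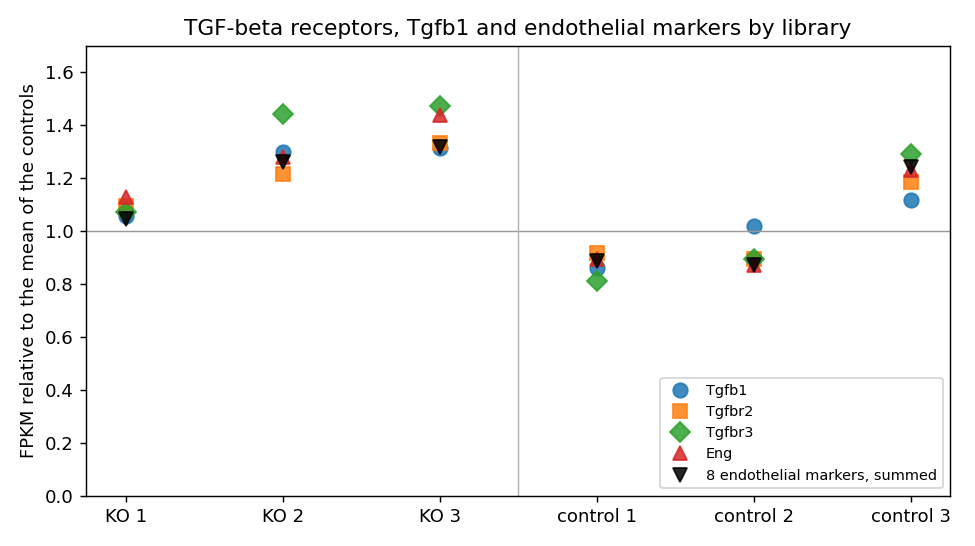
FPKM of Tgfb1, Tgfbr2, Tgfbr3, the endothelial co-receptor gene Eng and the sum of 8 endothelial markers, each divided by its mean over the 3 control libraries, for the knockout libraries (KO, left) and the controls (right). The 3 knockout libraries and control replicate 3 lie above 1 for all 5 quantities, and control replicate 1 below 1. Acvrl1, which did not follow the marker sum, is not shown.

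No SMAD gene passed the test. On log2(FPKM + 1) all 8 had a 95% interval within 1.5-fold either way. On recovered reads with voom 7 of the 8 did, and that of Smad9 ran from -0.10 to 0.65 on the log2 scale. Smad4, the common partner, averaged 26.6 ± 1.22 FPKM in knockout and 28.2 ± 2.77 FPKM in control ventricles, and Smad2, a TGF-beta and activin SMAD, 18.2 ± 1.36 and 19.2 ± 1.84 FPKM (SD, n = 3 each). Smad3 averaged 6.89 ± 0.417 and 6.36 ± 0.534 FPKM. Of the BMP SMADs, Smad5 was the most abundant, at 12.4 ± 0.497 FPKM in knockout and 12.0 ± 1.43 FPKM in control ventricles. Smad1 averaged 4.09 ± 0.416 and 3.96 ± 0.304 FPKM and Smad9 1.72 ± 0.278 and 1.42 ± 0.219 FPKM in knockout and control ventricles (SD, n = 3 each). The receptor-activated SMADs together summed to 42.1 to 43.9 FPKM in knockout and 42.3 to 43.3 FPKM in control libraries.

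The inhibitory SMADs are themselves induced by the pathway and feed back on it. Smad6, which mainly blocks BMP signalling, had 24.7, 24.4 and 27.7 FPKM in knockout libraries, against 24.4, 22.3 and 23.7 FPKM in control libraries. The lowest knockout value lay just above the highest control value, and the log2 change was 0.12 (SE 0.07, limma adjusted p = 0.455). Smad7, which blocks both branches, averaged 6.28 ± 0.665 FPKM in knockout and 6.28 ± 0.724 FPKM in control ventricles (SD, n = 3 each). Smad6 and Smad7 together amounted to 73.7% ± 4.60 of the summed receptor-activated SMAD level in the knockout and 69.2% ± 4.31 in the control (SD, n = 3 each), with overlapping ranges. The SMAD ubiquitin ligase genes Smurf1 and Smurf2, which mark SMADs and receptors for breakdown, averaged 7.28 ± 0.847 and 12.3 ± 0.318 FPKM in knockout ventricles, against 6.88 ± 0.170 and 12.7 ± 0.802 FPKM in control ventricles (SD, n = 3 each).

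Secreted and membrane antagonists did not pass the test either. Fstl1, a follistatin-like glycoprotein that binds BMP4, was the most abundant of all 42 genes, at 147, 164 and 176 FPKM in knockout libraries, against 133, 142 and 155 FPKM in control libraries. The ranges overlapped (log2 change 0.17, SE 0.09, limma adjusted p = 0.406). Bambi, a receptor-like protein without a kinase that dampens signalling, averaged 26.8 ± 2.07 FPKM in knockout and 29.0 ± 1.36 FPKM in control ventricles (SD, n = 3 each). Fstl3, a follistatin-like activin inhibitor, had 5.18, 4.24 and 4.44 FPKM in knockout libraries, against 4.12, 4.11 and 2.92 FPKM in control libraries. Its groups did not overlap, although 2 controls lay close to the lowest knockout value (log2 change 0.26, SE 0.12, limma adjusted p = 0.353), and 47.3% of its exon bases lie under Prss57. Nog, which encodes the BMP trap noggin, averaged 2.10 ± 0.111 FPKM in knockout and 1.67 ± 0.654 FPKM in control ventricles, from 30 to 72 reads per library. Fst, the activin trap follistatin, averaged 0.991 ± 0.418 and 0.966 ± 0.196 FPKM in knockout and control ventricles (SD, n = 3 each). Grem1, the BMP antagonist gremlin, had between 0 and 9 reads in each library and could not be compared at this depth. The latent TGF-beta binding proteins tether inactive TGF-beta to the matrix. Ltbp1 averaged 7.28 ± 1.52 FPKM in knockout and 7.14 ± 1.49 FPKM in control ventricles, and Ltbp3 9.06 ± 1.07 and 10.02 ± 1.85 FPKM (SD, n = 3 each).

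Of the homeobox genes that BMP signalling induces in many embryonic tissues, neither passed the test, although Msx2 had the largest fitted change of the 40 genes. Msx2 (chromosome 13, 53466884 to 53473074, minus strand) had 2.57, 3.001 and 2.94 FPKM in knockout libraries, against 2.13, 1.85 and 1.23 FPKM in control libraries. Each knockout library was above each control, at 1.63 times the control mean, but the adjusted p did not pass (log2 change 0.50, SE 0.13, 95% interval 0.19 to 0.81, limma adjusted p = 0.118). Over the alternatives tried its adjusted p stayed between 0.0617 and 0.299. Msx1 averaged 2.11 ± 0.110 FPKM in knockout and 2.47 ± 0.922 FPKM in control ventricles (SD, n = 3 each), where control replicate 3 had 3.53 FPKM and the other 2 controls 1.94 and 1.92 FPKM.

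Other genes of the pathway were taken from 7 lists with 98 genes in all, of which 69 were expressed highly enough to be tested. Of these, 3 rose and 0 fell, where 1.91% of all genes rose and 0.466% fell. The lists were chosen with earlier results of these data known, so this comparison cannot show that the pathway holds more calls than other genes. The 3 that rose act outside the cell or at its surface. Hjv (named Hfe2 in the annotation used) encodes hemojuvelin, a BMP co-receptor best known for iron control in liver and for its expression in heart and skeletal muscle. Hjv had 13.1, 12.2 and 11.4 FPKM in knockout libraries, against 2.94, 3.66 and 4.47 FPKM in control libraries, 3.31 times the control mean. The groups were far apart (log2 change of FPKM + 1 1.51, SE 0.12, limma adjusted p = 0.00189), and the call held under all 17 alternatives. With voom on recovered reads the log2 change was 1.74. Its position is chromosome 3, 96525172 to 96529210, plus strand.

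Gdf15, a distant TGF-beta family member induced by cell stress, had 3.73, 3.64 and 2.27 FPKM in knockout libraries, against 0.293, 0.516 and 0.615 FPKM in control libraries. Every knockout library was above every control, at 6.78 times the control mean. The log2 change of FPKM + 1, which understates that ratio, was 1.502 (SE 0.16, limma adjusted p = 0.00583). With voom on recovered reads the log2 change was 2.75. The call held in all 6 fits that left out a library. Pcsk6, which encodes the proprotein convertase PACE4 that cleaves TGF-beta family precursors, had 2.92, 4.09 and 4.27 FPKM in knockout libraries, against 1.48, 1.47 and 1.99 FPKM in control libraries. Its mean was 2.28 times the control, with a log2 change of 1.18 by voom on recovered reads. On log2(FPKM + 1) the change was 0.84 (SE 0.14, limma adjusted p = 0.0242). That call was lost without knockout replicate 2, knockout replicate 3, control replicate 1 or control replicate 2 (limma adjusted p between 0.0864 and 0.0963), and without the filter on low values (0.0968).

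**Figure D5:**
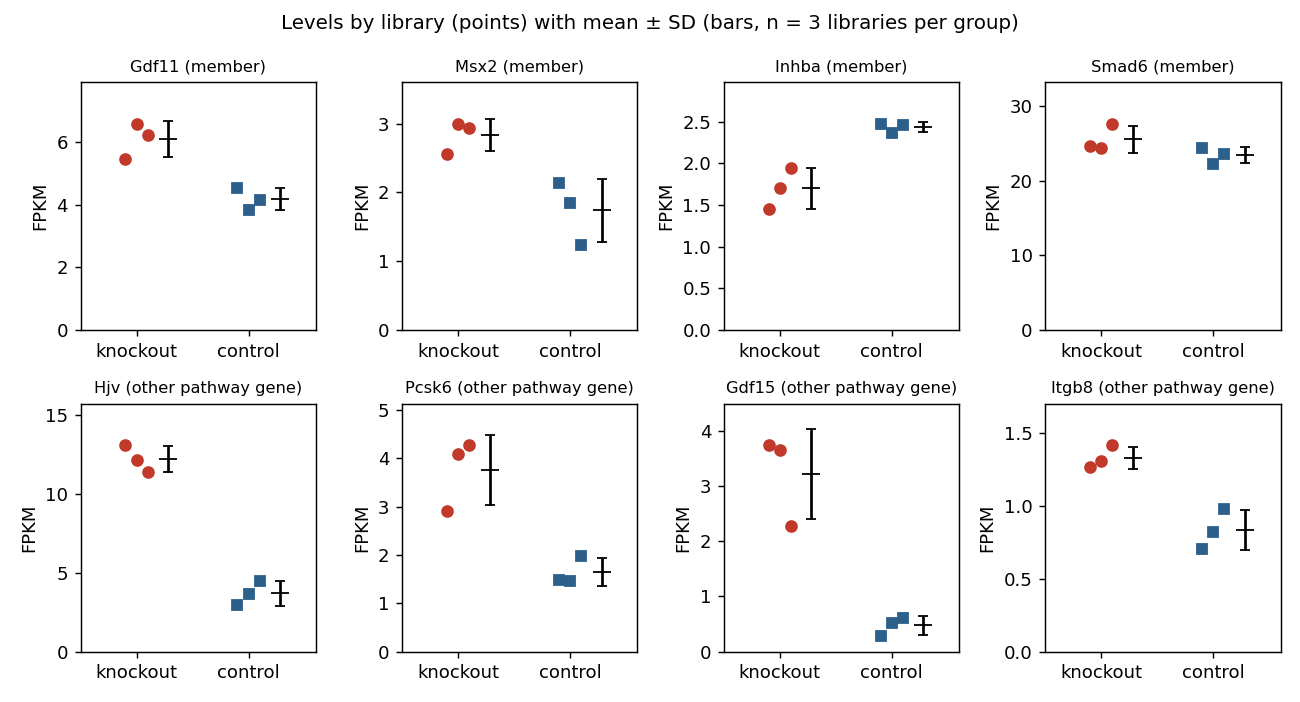
FPKM by library for 4 of the 42 genes (upper row) and 4 other pathway genes (lower row); red circles are knockout and blue squares control libraries, and black bars give the mean and SD of the 3 libraries of each group. Gdf11, Hjv, Pcsk6 and Gdf15 passed the adjusted threshold; Msx2, Inhba, Smad6 and Itgb8 did not, although their groups do not overlap.

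By list, the other ligands had 1 of 6 tested genes higher (Gdf15), the other receptors and co-receptors 1 of 6 (Hjv), and the ligand activation and matrix genes 1 of 13 (Pcsk6), with 0 lower in each. Their median log2 changes were 0.14, 0.11 and 0.08. Below the threshold, Bmp10, a ligand of the trabecular myocardium, had 9.23, 12.0 and 11.7 FPKM in knockout libraries, against 4.10, 6.70 and 8.93 FPKM in control libraries (log2 change 0.71, SE 0.22, limma adjusted p = 0.179). Itgb8, an integrin chain that releases latent TGF-beta, was at 1.33 ± 0.0781 FPKM in knockout and 0.831 ± 0.137 FPKM in control ventricles (SD, n = 3 each; limma adjusted p = 0.134). It was called higher on recovered reads with voom weights (adjusted p = 0.0213). Eng averaged 57.2 ± 6.89 and 44.6 ± 8.97 FPKM in knockout and control ventricles (SD, n = 3 each; limma adjusted p = 0.274), in the library order of the endothelial markers given above.

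The other antagonists (0 of 8 called), the intracellular regulators (0 of 16), the BMP targets (0 of 9) and the TGF-beta targets (0 of 11) held no call in either direction. Their median log2 changes were 0.03, -0.0028, 0.15 and 0.03. The matrix proteoglycan genes Dcn and Bgn, whose products bind TGF-beta, averaged 39.6 ± 3.97 and 27.9 ± 3.45 FPKM in knockout ventricles, against 45.8 ± 6.47 and 24.1 ± 3.04 FPKM in control ventricles (SD, n = 3 each). Among the intracellular regulators Pmepa1, a TGF-beta-induced inhibitor of SMAD2 and SMAD3, averaged 5.77 ± 0.244 and 6.62 ± 0.452 FPKM (limma adjusted p = 0.31), and the SMAD phosphatase gene Ppm1a 8.01 ± 0.223 and 8.99 ± 0.521 FPKM in knockout and control ventricles (SD, n = 3 each; limma adjusted p = 0.337). For both genes each knockout library lay below each control.

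The transcripts most used as a readout of BMP signalling gave no call. Of the 9 BMP targets tested, 8 had a fitted change above 0, against 45.9% of all genes tested. The share above 0 was 62.5% for the 40 genes, 68.1% for the other pathway genes tested and 72.7% for the TGF-beta targets. The sign of a small change depends on the scaling. The median log2 change of all genes was -0.01 in the main fit and 0.06 as TPM. These counts of signs therefore do not show a shared rise. Tbx2, the exception among the BMP targets, averaged 3.56 ± 0.207 FPKM in knockout and 3.98 ± 0.173 FPKM in control ventricles (limma adjusted p = 0.436). Dlx5, too low to be tested, averaged 0.303 ± 0.0716 and 0.498 ± 0.0990 FPKM (SD, n = 3 each). For both, each knockout library lay below each control. Id2 averaged 82.2 ± 4.62 FPKM in knockout and 74.1 ± 6.83 FPKM in control ventricles (log2 change 0.15, SE 0.09), and Id3 114 ± 6.94 and 105 ± 7.02 FPKM (log2 change 0.12, SE 0.08; SD, n = 3 each). These genes encode inhibitors of basic helix-loop-helix factors. Their group ranges overlapped. Id1 had the change nearest to 0 of the 9. Id1, which BMP SMADs induce directly, had 60.2, 55.7 and 64.7 FPKM in knockout libraries, against 62.4, 53.7 and 64.5 FPKM in control libraries, a log2 change of 0.00 (SE 0.09). Id4 averaged 2.08 ± 0.0693 FPKM in knockout and 1.78 ± 0.0885 FPKM in control ventricles (limma adjusted p = 0.398), and Atoh8, a BMP-induced factor of endothelium, 8.35 ± 0.224 and 7.11 ± 0.956 FPKM (SD, n = 3 each; limma adjusted p = 0.316). Of the TGF-beta targets, the matricellular gene Ccn2 averaged 18.6 ± 1.56 FPKM in knockout and 15.4 ± 1.45 FPKM in control ventricles (limma adjusted p = 0.213), with 23.2% of its exon bases under another gene. The smooth muscle gene Tagln, with 67.9% of its exon bases so covered, averaged 1.88 ± 0.164 and 1.53 ± 0.141 FPKM (SD, n = 3 each; limma adjusted p = 0.358).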

How the data were processed

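The authors deposited FPKM values for 3 knockout and 3 control libraries, in 1 table of 54532 Ensembl IDs. Per the labels' protocols, RNA was extracted with TRIzol and libraries made with a NEBNext Ultra RNA kit. Tools listed in the submitters' processing notes are featureCounts 1.5.0-p3, HISAT2 2.0.5, fastp and CASAVA, with mm10 as the build; no order or annotation release is listed. Symbols, coordinates and exon lengths came from GENCODE M21 (54495 IDs matched, 37 did not). For 111 IDs the symbol was kept by another ID with a higher mean. FPKM multiplied by exon length gave whole reads within 0.02 for 98.1% to 98.5% of genes under 30 reads. The total behind the FPKM step was 0.943 to 1.005 of the recovered reads and followed the libraries' size factors, so the deposited values appear scaled by size factors.

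The 14149 genes averaging 0.5 FPKM or more were fitted together on log2(FPKM + 1) in limma 3.58.1 (R 4.3.3), trend on, with genotype as sole term and two-sided p-values. Family shares were compared by exact permutation tests (SciPy 1.17.1). The procedure was also run on simulated reads with known changes, and the share recovered is not reported here. No library was a copy of another: the median chi-square per gene was 1.72 or more for each pair of libraries. All 42 genes are named, with the called genes and the 2 of smallest p of each other list. Id1, Id2, Id3, Tbx2 and Dlx5 are also named and were chosen after their values were seen. Members and lists were chosen with earlier results of these data known. Tried alternatives were 2 pseudocounts, 3 filters, 3 scalings, library weights, voom on recovered reads, a replicate block and leaving out each library. Some marker values are not reported here. Tables and figures used pandas 2.3.3, NumPy 2.4.6 and matplotlib 3.10.9 in Python 3.11.15.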

Additional observations from a re-analysis of the deposited data

How the results depend on the processing

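Among the pathway genes the call of Gdf11 was lost whichever library was left out, without the filter on low values, after quantile normalization and with the replicate block, so that 0 of the 42 genes were higher there; it held under the other 8 alternatives. With voom on recovered reads 1 gene, Inhba, was called lower. Of 663 recomputed values of single pathway genes 590 kept direction and side of the threshold, 9 lost the Gdf11 call, 1 gained the Inhba call, and 63 changed sign without being called in either fit. Medians by role stayed between -0.16 and 0.31 on the log2 scale. Of the other pathway genes Gdf15, Hjv and Pcsk6 were called higher, 1 remained testable and called at a mean of at least 5 FPKM, and the count ranged from 2 to 3 in the fits that left out a library, with 0 lower throughout. Over all genes, 270 were higher and 66 lower. The counts were 110 and 12 without a filter and 409 and 102 with voom. At a mean of at least 5 FPKM 132 were higher, as TPM 40 were lower and with library weights 112. Leaving out 1 library gave 109 to 281 higher and 23 to 113 lower genes, and the members called higher were 0 in each. The causes were not tested. With the replicate block 220 genes were higher and 64 lower. Deviations of same-numbered libraries correlated at -0.0021, 0.140 and 0.164. For knockout replicates 2 and 3 the same-numbered control correlated best. Knockout replicate 1 correlated between -0.022 and 0.021 with the controls, best with control replicate 3. These values do not settle whether the numbers pair the libraries, and the main fit did not pair them. Depth limits statements on Grem1 and, less so, Nog, Fst and Bmpr1b.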
